A study of Mus musculus with 25 samples.

Results

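Double-negative (DN) conventional dendritic cells (cDC) of the Peyer's patch were compared with the CD11b+ cDC of the same tissue, both without treatment. Samples were chosen by their titles, which gave 3 DN and 5 CD11b+ arrays, that is 8 of the 25 samples of the series. All were sorted from untreated wild-type (WT) C57BL/6 females that were 6 to 8 weeks old. The CD11b+ cells were sorted as CD11c-high MHCII+ SIRPα+ BST2- CD11b-intermediate CD8α- CD4- and the DN cells by the same markers except that they were CD11b-. The labels place CD11b+ cDC mainly in the interfollicular region, a T cell zone, and DN cDC in the SED, the interfollicular region or both. Each replicate pooled 42 mice, with the patches of 3 mice per collagenase and DNase digest, and CD11c+ cells were enriched on magnetic beads before sorting. Between 2 and 20 ng of RNA per sample was amplified, labelled and hybridised to a mouse gene array that reads whole transcripts. A sorted pool is a bulk sample, so fewer cells of a type and less RNA per cell cannot be told apart in any value below.

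Dendritic cells take up antigen, process it onto MHC class II and present it to T cells. Conventional dendritic cells fall into a cDC1 lineage, marked by XCR1 and CLEC9A, and a cDC2 lineage, marked by SIRPα and in most tissues by CD11b. In Peyer's patches, lymphoid tissue that lies in the wall of the small intestine beneath a specialised epithelium, these cells meet material carried across that epithelium. On maturation they raise co-stimulatory molecules and the chemokine receptor CCR7, which leads them to T cell zones.

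Levels below are log2 signals, so that a difference of 1 is a doubling. The rows of the deposited table carry gene names that fit only the arrays from R848-treated mice. Rows of the untreated arrays were therefore matched to them by order, using CD11b+ arrays only, and 17043 genes could be named. A gene that responds strongly to R848, a ligand of a Toll-like receptor, is matched less often, and Cd8a, Ccl22, Cd209a, Clec9a and Id2 were among the genes not named. A gene was called when its adjusted p in limma, with Benjamini-Hochberg adjustment over all named genes, was below 0.05. A level was taken as background when it lay at or below the 95th percentile of 718 olfactory receptor genes, which stood between 4.28 and 4.40 on the 8 arrays.

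Both groups held the defining transcripts of cDC. Flt3, the growth factor receptor on which cDC depend, stood between 10.38 and 10.45 on the DN arrays and between 10.11 and 10.53 on the CD11b+ arrays. H2-Ab1, a chain of MHC class II, averaged 12.21 ± 0.09 (SD, n = 3) in DN and 12.31 ± 0.07 (SD, n = 5) in CD11b+ cells. The class II transactivator Ciita averaged 9.19 ± 0.15 (SD, n = 3) and 9.28 ± 0.17 (SD, n = 5). Zbtb46, a transcription factor of the cDC lineage, was lower on the scale, at 5.64 to 6.17 in DN and 6.03 to 6.49 in CD11b+ cells. The ranges overlapped for all of these genes, and none was called. Of the 11 measured genes of MHC class II presentation, 0 were called in either direction, with a median difference of -0.118 against -0.0343 over all genes, and 1 passed in limma at an unadjusted p under 0.05. The same counts held for the 11 measured genes of MHC class I presentation. Over all 17043 named genes, 2409 passed at that unadjusted threshold. The 6 arrays of Peyer's patch macrophages called LysoMac, in the same array set, gave lower levels of Flt3, with medians of 5.61 and 5.25 in the TIM-4- and TIM-4+ groups.

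Among the 17043 named genes, 548 were called, or 3.22%. Of these, 326 were higher in DN cDC (1.91%) and 222 were lower (1.3%). Differences over 1 on the log2 scale were found for 123 of the higher and 60 of the lower genes, and differences over 2 for 34 and 6. All arrays of one group lay outside the range of the other for 538 of the 548, and for 1636 of all genes (9.6%), 742 of them higher in DN (4.35%) and 894 lower (5.25%). The number of calls depended on single DN arrays, with 318 genes called without DN replicate 1, 336 without DN replicate 2 and 432 without DN replicate 3. Genes called lower were 88 without DN replicate 2 and 108 without DN replicate 1. After every array was shifted to a common median, which moved the median over all genes to -0.111, 242 genes were higher and 278 lower, so that 46.5% of calls were higher in place of 59.5%.

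**Figure D1:**
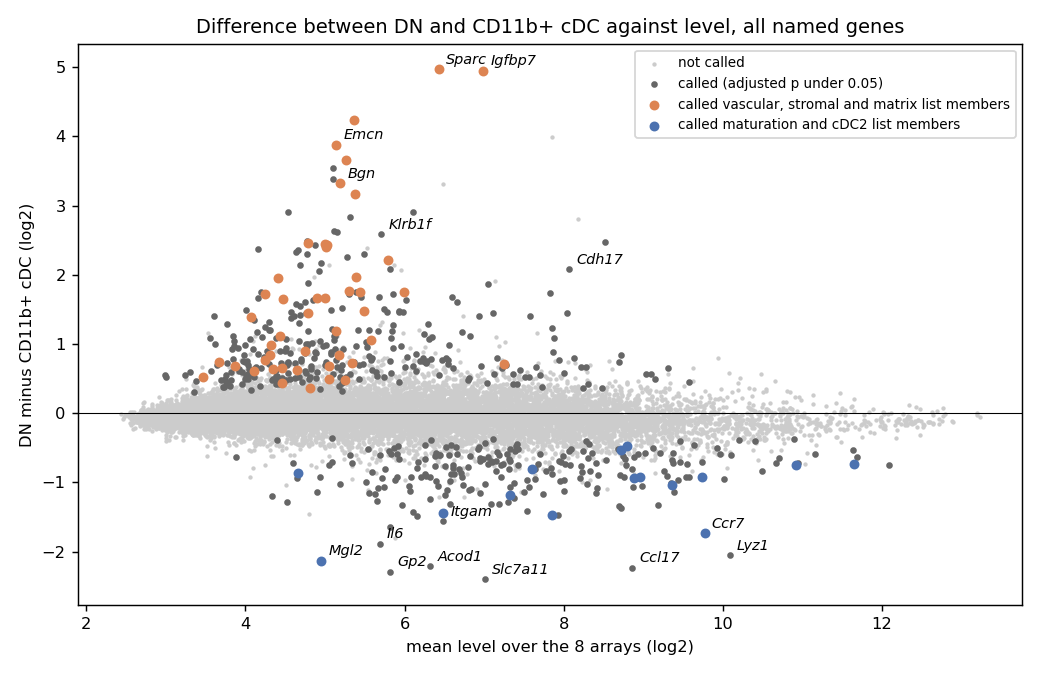
Difference between DN and CD11b+ cDC (log2, y axis) against the mean level over the 8 arrays (log2, x axis), with 1 point per named gene. Dark points are the 548 called genes; orange marks called vascular, stromal and matrix list members, which lie mostly at low mean levels and reach 4.97, and blue marks called maturation and cDC2 list members, which lie below 0.

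The arrays of each group did not form equally tight sets. Pearson's r between arrays, across genes, was 0.99 to 0.992 among DN and 0.978 to 0.994 among CD11b+ arrays. CD11b+ replicates 4 and 5 stood apart, at -36.5 and -35.8 on a first principal component that held 46.1% of the variance, while CD11b+ replicates 1 to 3 lay between -1.56 and 6.69 and the DN arrays between 19.7 and 22.6. Of 40 gene lists, the summed linear level was higher on both of those arrays than on any of CD11b+ replicates 1 to 3 for 22, and lower on both for 8. The mean over all named genes was also higher there, at 5.48 on both against 5.4 to 5.41. The median was lower, at 4.85 and 4.84 against 4.86 to 4.93. Whether the list sums go beyond this shift over all genes was not tested. Macrophage and monocyte markers stood at 3777 and 4251 there against 2394 to 2584 on CD11b+ replicates 1 to 3 and 2462 to 2607 on the DN arrays. B cell markers stood at 916 and 808 against 482 to 558, plasmacytoid dendritic cell markers at 3313 and 3171 against 2114 to 2417, and cDC transcription factors at 9729 on both against 7461 to 7810. Cell cycle genes stood at 5429 and 5459 against 3862 to 4527. The part of these differences in the results was not tested. Without CD11b+ replicates 4 and 5, 470 genes were called, 307 higher and 163 lower.

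The promoters of Slc7a11 and Il6, which were both lower in DN cDC, are shown because each holds a known response motif near its start site. They are RefSeq sequences of build GRCm38.p6, from 250 bases before to 50 after the start, at chr3:50443564-50443863 on the minus strand and chr5:30012864-30013163 on the plus strand, and capitals mark the motif.
Slc7a11: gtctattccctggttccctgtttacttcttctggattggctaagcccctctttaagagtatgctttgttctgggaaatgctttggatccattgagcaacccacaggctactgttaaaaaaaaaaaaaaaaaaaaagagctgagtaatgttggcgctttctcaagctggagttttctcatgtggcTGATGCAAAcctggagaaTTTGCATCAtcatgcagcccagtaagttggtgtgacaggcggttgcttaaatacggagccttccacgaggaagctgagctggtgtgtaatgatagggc
Il6: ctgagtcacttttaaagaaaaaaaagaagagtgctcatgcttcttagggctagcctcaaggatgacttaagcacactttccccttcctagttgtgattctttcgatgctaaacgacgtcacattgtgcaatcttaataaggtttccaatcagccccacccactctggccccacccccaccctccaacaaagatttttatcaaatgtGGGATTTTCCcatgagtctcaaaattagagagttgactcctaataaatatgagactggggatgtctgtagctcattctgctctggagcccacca
In Slc7a11 the amino acid response element TGATGCAAA occurred on both strands, 66 and 48 bases before the start, and the 2 copies did not overlap. In Il6 the NF-kappaB motif (GGGA, any base, then TTTCC) occurred once, 44 bases before the start. Searched on both strands of 32851 promoters of this length, the first motif was in 0.271% and the second in 0.411%. Because the 2 promoters were chosen for their motifs, these shares measure no enrichment. Of the 10 maturation genes called lower, 4 had a promoter in the table, and 0 of these held the NF-kappaB letters. Of the 2 cytokine genes called lower, both had a promoter, and Il6 alone held them. Among the 2 chemokine genes called lower, 1 had a promoter, which did not hold them. A match is a description of the sequence and no evidence of binding.

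Sort markers came first, as a check on the labels. Itgam, which encodes CD11b itself, stood at 7.24, 6.86, 7.49, 6.85 and 6.94 on the 5 CD11b+ arrays and at 4.95, 5.50 and 6.09 on the 3 DN arrays. All DN arrays lay below all CD11b+ arrays, and all were above background. The difference was -1.56 ± 0.21 (SE; limma adjusted p = 0.000679), in the direction of the labels. Timd4, the receptor TIM-4, was also lower (-1.31 ± 0.33, limma adjusted p = 0.0486), but leaving out any 1 array other than CD11b+ replicate 4 ended that call, with adjusted p up to 0.204 without DN replicate 1. No call was made for the other sort markers, CD11c (Itgax, -0.29), SIRPα (Sirpa, -0.37), BST2 (Bst2, -0.13) and Cd4 (0.37). In LysoMac arrays the median of Timd4 was 5.29 in the TIM-4- and 10.80 in the TIM-4+ group.

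Of 20 measured transcription factors of cDC, 3 were lower in DN and 0 higher, with a median of -0.141. Cebpa, a regulator of myeloid development, stood at 8.15, 8.12, 8.02, 8.88 and 8.90 in CD11b+ and at 7.43, 6.84 and 7.63 in DN cells. Relb, an NF-kappaB subunit needed by cDC2, stood at 8.25 to 8.71 in CD11b+ and at 7.82 to 7.96 in DN cells. Zeb2, a repressor that favours cDC2 and plasmacytoid cells over cDC1, differed by -0.55 ± 0.12 (SE; limma adjusted p = 0.0267). The groups did not overlap for these 3 genes, yet all 3 calls ended without DN replicate 2, with adjusted p of 0.0739, 0.077 and 0.16. The call of Zeb2 also ended without CD11b+ replicate 3 (0.0514), CD11b+ replicate 5 (0.0647) or DN replicate 3 (0.0822). The lineage factors Irf4 (0.32), Irf8 (-0.82, limma adjusted p = 0.0729), Batf3 (-0.35), Klf4 (0.44), Notch2 (-0.03) and Runx3 (0.04) were not called. Irf8 was called as lower in limma without DN replicate 3. Spi1 (-0.16), Spib (-0.54), Rbpj (-0.41), Ahr (-0.24), Prdm1 (-0.12), Cebpb (-0.11), Nfil3 (0.10), Tcf4 (0.11), Bcl11a (0.12) and Ikzf1 (0.19) were not called either.

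Of 8 measured receptors for growth factors, 3 were lower in DN cDC and 0 were higher. Csf1r, the receptor of macrophage colony-stimulating factor, stood at 9.84, 9.72, 9.48, 9.67 and 9.90 in CD11b+ and at 9.05, 8.92 and 9.08 in DN cells, with a median of 11.64 in TIM-4- LysoMac. Csf2rb, the shared signalling chain for granulocyte-macrophage colony-stimulating factor, differed by -0.65 ± 0.11 (SE; limma adjusted p = 0.00459), and was not called after cyclic loess or quantile scaling. No DN array reached a CD11b+ array for either gene. Csf3r, the receptor of granulocyte colony-stimulating factor, was called at -0.60 (limma adjusted p = 0.042) but not when any 1 array other than CD11b+ replicate 3 or 4 was left out, with adjusted p up to 0.183 without DN replicate 2.

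The cDC2 signature had 5 of 16 measured genes lower and 0 higher, with a median of -0.331. Mgl2, a C-type lectin of dermal and mucosal cDC2, stood at 5.55, 4.93, 6.68, 5.50 and 6.10 in CD11b+ and at 3.88, 3.34 and 3.64 in DN cells. Every DN array was at background and every CD11b+ array above it, so the gene was at least 2.69-fold lower in DN cDC. Cd300a, an inhibitory receptor, differed by -0.92 ± 0.13 (SE; limma adjusted p = 0.000789). Ccr2, the receptor that brings monocytes and their kin from blood, was at background in DN cells and at least 1.58-fold lower there. The membrane proteins Ifitm2 (-0.75) and Ifitm3 (-0.73), which restrict virus entry, were lower too, and the call of Ifitm3 ended without DN replicate 2 (limma adjusted p = 0.0509). Of 13 measured genes of the cDC1 signature, Septin3 and Cadm1 were higher and Naaa was lower. The other 10 were not called. The median of the list was 0.069, with 7 differences above 0 and 6 below. Septin3, a cytoskeletal GTP-binding protein, stood at 5.95, 6.22 and 5.87 in DN and at 4.12 to 4.82 in CD11b+ cells. Cadm1, an adhesion molecule typical of cDC1, stood at 6.11, 6.71 and 5.70 in DN and at 4.84 to 5.03 in CD11b+ cells. Both sets of DN arrays lay above every CD11b+ array. Naaa, a lysosomal amidase, was called at -0.83 (limma adjusted p = 0.0477), and the call ended without any 1 of CD11b+ replicates 1, 4 and 5 or of the DN replicates, with adjusted p up to 0.264 without DN replicate 2.

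Among C-type lectins and uptake receptors, 4 of 22 measured genes were lower in DN cDC and 1 was higher, with a median of -0.136. Gp2, a receptor for fimbriated bacteria known from M cells, stood at 6.32, 6.42, 6.52, 7.44 and 6.70 in CD11b+ and at 4.57, 4.04 and 4.58 in DN cells. In DN cells it lay around the background level, and LysoMac medians were 3.13 and 3.32. Clec7a, the receptor dectin-1 for fungal glucans, stood at 8.30 to 8.67 in CD11b+ and at 7.22, 6.37 and 7.44 in DN cells. Ly75, the uptake receptor DEC-205, differed by -1.11 ± 0.14 (SE; limma adjusted p = 0.000516), with no overlap between groups. Clec5a, which signals through an activating adaptor, was called at -1.12 but lost its call without DN replicate 1 (limma adjusted p = 0.078) or DN replicate 2 (0.0836). The exception was Fcgr1, the high-affinity receptor for IgG, at 4.94 to 5.24 in DN cells and at background in CD11b+ cells, and so at least 1.62-fold higher in DN cDC.

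**Figure D2:**
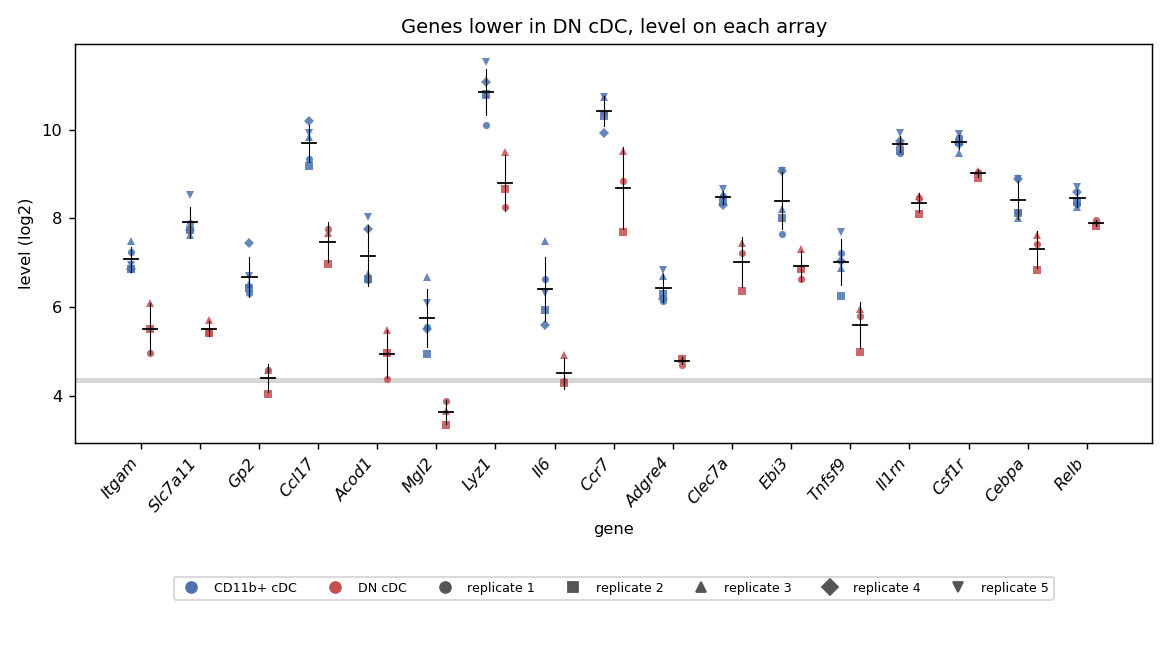
Level (log2) on each array of genes lower in DN cDC, with CD11b+ arrays in blue and DN arrays in red, replicate numbers as symbols, the mean as a bar, and 1 SD as a line. The grey band is the background range of 4.28 to 4.40; the DN arrays lie below the CD11b+ arrays for all 17 genes.

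Genes of maturation and co-stimulation were the list with most calls among those of dendritic cells: 10 of 27 measured were lower in DN cDC and 0 higher. The median of the list was -0.384. Ccr7, the receptor that guides mature cDC to T cell zones, stood at 10.38, 10.32, 10.74, 9.93 and 10.74 in CD11b+ and at 8.84, 7.70 and 9.53 in DN cells. DN replicate 2 was the lowest, and no DN array reached a CD11b+ array. Ebi3, a subunit of IL-27 and IL-35, stood at 7.64 to 9.08 in CD11b+ and at 6.63, 6.85 and 7.30 in DN cells. The co-stimulatory ligand Cd86 stood at 8.94, 9.01, 9.16, 9.46 and 9.61 in CD11b+ and at 8.33, 8.00 and 8.57 in DN cells. Tnfsf9, the ligand of the co-stimulatory receptor 4-1BB, differed by -1.44 ± 0.27 (SE; limma adjusted p = 0.00832). Socs2, an inhibitor of cytokine signals, differed by -1.19 and Fscn1, which bundles actin in dendrites, by -1.04. The count rested on DN replicates 1 and 2: 4 genes were called lower without DN replicate 1, 1 without DN replicate 2, and 3 when the fit held the 8 arrays alone. Without DN replicate 2, adjusted p was 0.0601 for Ebi3, 0.0592 for Tnfsf9, 0.0695 for Socs2, 0.149 for Fscn1 and 0.061 for Cd86. Without DN replicate 1 it was 0.078 for Ebi3 and 0.0692 for Fscn1. Slamf1 (1.11) and Icosl (0.72) had differences above 0 and were not called.

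Among chemokines, 2 of 15 measured were lower in DN cDC. Ccl17, which attracts CCR4+ T cells, stood at 9.34, 9.19, 9.84, 10.19 and 9.94 in CD11b+ and at 7.77, 6.96 and 7.68 in DN cells. Its difference was -2.23 ± 0.29 (SE; limma adjusted p = 0.000566), and its median was 9.46 in TIM-4- LysoMac. Cxcl16, a membrane-bound chemokine, was called at -0.59, and not without DN replicate 1 (limma adjusted p = 0.0875) or DN replicate 2 (0.104). Of 17 measured cytokines, Il6 and Il1rn were lower and Csf1 higher. Il6 stood at 6.64, 5.94, 7.48, 5.60 and 6.32 in CD11b+ and at 4.33, 4.28 and 4.91 in DN cells. In DN cells 2 of the arrays were at background, and none reached a CD11b+ array. Il1rn, the antagonist of the IL-1 receptor, stood at 9.47 to 9.93 in CD11b+ and at 8.11 to 8.50 in DN cells. Csf1, at 4.64, 4.18 and 4.21 in DN cells, was near background in both groups, and its call ended without CD11b+ replicate 5 (limma adjusted p = 0.0633) or DN replicate 1 (0.144). Tnip3, which restrains NF-kappaB, was called at -1.26 and was the only 1 of 11 measured NF-kappaB regulators to be called, but not without DN replicate 1 (0.0811) or DN replicate 2 (0.0985).

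The redox and metabolic lists moved downward where they were called. Slc7a11, the cystine transporter that supplies glutathione synthesis, stood at 7.90, 7.74, 7.63, 7.74 and 8.53 in CD11b+ and at 5.42, 5.41 and 5.70 in DN cells. No array of one group came near the other, and the level was 5.27-fold higher in CD11b+ cDC. Nfe2l2, the transcription factor NRF2 that drives antioxidant genes, differed by -0.91 ± 0.11 (SE; limma adjusted p = 0.000328). Gsr, glutathione reductase, was called at -0.70, and not without DN replicate 1 (limma adjusted p = 0.053) or DN replicate 2 (0.134); Slc7a11 and Gsr were the calls among 14 measured genes of the oxidative stress response. In immunometabolism 5 of 18 measured were lower and 0 higher. Acod1, which makes itaconate, stood at 6.60, 6.64, 6.74, 7.75 and 8.04 in CD11b+ and at 4.38, 4.96 and 5.48 in DN cells, with CD11b+ replicates 4 and 5 the highest. Its LysoMac medians were 12.03 and 11.86. Pfkfb3, a regulator of glycolysis, differed by -0.51. Ltc4s (-1.32), Slc2a6 (-0.80) and Hk2 (-0.86) were called over all arrays and not without DN replicate 1 or DN replicate 2, and Hk2 also not without CD11b+ replicates 2, 4 or 5 or DN replicate 3, with adjusted p in limma up to 0.218.

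Lyz1, the lysozyme that Paneth cells and some phagocytes secrete, stood at 10.10, 10.80, 10.79, 11.07 and 11.53 in CD11b+ and at 8.26, 8.67 and 9.50 in DN cells. Its LysoMac medians were 13.14 and 13.09, and it was the only 1 of 5 measured Paneth markers to be called. Adgre4, a relative of the macrophage antigen F4/80, stood at 6.13 to 6.83 in CD11b+ and at 4.69 to 4.85 in DN cells. Nr1h3, the oxysterol receptor LXRα, differed by -1.43 ± 0.24 and the transcription factor Runx1 by -1.41 ± 0.21 (SE; limma adjusted p = 0.00394 and 0.00158). Dnase1l3, a secreted nuclease, differed by -1.34, the transglutaminase Tgm2 by -1.36 and the membrane metalloproteinase Mmp25 by -1.49. The galectin Lgals3 differed by -1.0, the necroptosis kinase Ripk3 by -1.0 and the secretion system sensor component Naip2 by -0.96. All of these kept their call when any 1 array was left out. The caspase Casp4 was called at -1.0 and not without DN replicate 1 (limma adjusted p = 0.0674) or DN replicate 2 (0.0734), and the transcription factor Mitf at -0.88 and not without DN replicate 2 (0.0944). Mmp12, the macrophage elastase, was called at -0.96 (limma adjusted p = 0.0351) and not without any 1 of CD11b+ replicates 1 to 3 or of the DN replicates, with adjusted p up to 0.184 without DN replicate 1.

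In the list of basement membrane and secreted matrix proteins, 18 of 23 measured genes were higher and 0 lower, with a median of 1.06; the list was chosen with this pattern known. Sparc, a collagen-binding matrix protein, stood at 9.70, 9.18 and 9.74 in DN and at 6.18, 4.81, 4.39, 3.74 and 3.71 in CD11b+ cells. Igfbp7, a secreted binding protein of vessel walls, stood at 10.43, 9.75 and 10.06 in DN and at 6.34, 5.11, 4.50, 4.82 and 4.88 in CD11b+ cells. CD11b+ replicate 1 was the highest of its group for both genes, yet far below the DN arrays. Sparcl1, a relative of Sparc, stood at 8.33, 7.24 and 8.48 in DN cells and was at least 12.6-fold higher there, since CD11b+ cells were at background. The proteoglycan Bgn stood at 7.09, 7.40 and 7.30 in DN and at 3.78 to 4.18 in CD11b+ cells, at least 7.49-fold higher. Timp3, an inhibitor of metalloproteinases, was at least 3.88-fold higher. The basement membrane linker Nid1 stood at 6.89 to 7.18 in DN and at 5.25 to 5.42 in CD11b+ cells. For every 1 of these genes the groups were separate. The summed linear level of the list was 3638, 2538 and 3406 on the DN arrays and 447 to 652 on the CD11b+ arrays.

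Of 19 measured blood endothelial markers, 18 were higher in DN cDC and 0 lower, with a median of 1.45. Emcn, a sialomucin of venous and capillary endothelium, stood at 7.79, 7.08 and 7.84 in DN and at 3.33 to 4.24 in CD11b+ cells, at least 9.24-fold higher. Fabp4, a fatty acid carrier of capillaries and fat cells, stood at 7.45, 7.04 and 8.15 in DN and at 3.27 to 4.76 in CD11b+ cells. Cdh5, the cadherin of endothelial junctions, stood at 6.80, 6.22 and 6.63 in DN and at 4.78, 4.40, 4.27, 3.47 and 3.65 in CD11b+ cells. In CD11b+ cells the levels of Cdh5 straddled background, and no array reached those of DN cells. The phosphatase Ptprb differed by 2.44, the receptor Flt1 for vascular growth factor by 2.40 and Plvap, of fenestrated vessels, by 2.21. The exception in the list was the junction protein Cldn5 (-0.27), which was not called. Summed levels were 1783, 1125 and 1874 on the DN arrays and 390 to 593 on the CD11b+ arrays. Of 4 measured lymphatic endothelial markers 0 were called in limma, against 3.22% of all named genes. At an unadjusted p under 0.05, 0 passed, and 3 were at background in both groups. All 4 differences were above 0. Prox1, Pdpn and Ccl21a of this list were not named, so these counts cannot tell whether lymphatic endothelial cells were present.

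Pericyte and smooth muscle markers had 6 of 11 measured genes higher and fibroblast and reticular cell markers 4 of 13, with medians of 0.369 and 0.179 and 0 lower in either. Rgs5, a regulator of G-protein signals in pericytes, stood at 8.01, 6.02 and 8.04 in DN and at 3.97 to 4.32 in CD11b+ cells. DN replicate 2 lay well below the others of its group, and all CD11b+ arrays were at background, so that the gene was at least 7.96-fold higher. Acta2, smooth muscle actin, stood at 6.72, 6.17 and 6.69 in DN and at 4.68 to 4.86 in CD11b+ cells. Des (0.78) and Actg2 (0.90), which encode muscle filaments, were higher. Tagln (0.64) lost its call without DN replicate 3 (limma adjusted p = 0.057), and Myh11 (0.37) without DN replicate 1 (0.151), DN replicate 2 (0.172) or CD11b+ replicates 1, 2, 4 or 5. Dcn, a proteoglycan of fibroblasts, stood at 5.55, 5.00 and 5.39 in DN cells and was at least 1.94-fold higher, and Pdgfra, a growth factor receptor of mesenchyme, was at least 1.39-fold higher. Calls of Col1a2 (0.50) and Pdgfrb (0.43) ended without DN replicate 1 (0.193 and 0.19) and without CD11b+ replicate 4 or 5, that of Col1a2 also without DN replicate 2 and that of Pdgfrb also without DN replicate 3. The collagen Col1a1 (0.35) and the reticular cell chemokines Ccl19 (0.09) and Cxcl13 (-0.34) were not called. The other collagens of the list, Col3a1, Col5a2, Col6a1, Col6a2 and Col6a3, were not named. Summed levels were 615, 382 and 625 in DN against 216 to 254 in CD11b+ for pericyte markers, and 344, 314 and 304 against 233 to 275 for fibroblast markers.

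Further genes among the largest differences stood in no list. Plpp3, a lipid phosphatase, stood at 7.36, 6.85 and 7.45 in DN and at 3.79 to 3.88 in CD11b+ cells, at least 7.25-fold higher. Serping1, the inhibitor of complement C1, stood at 6.81, 7.82 and 7.33 in DN cells and was at least 7.78-fold higher. Tcim was at least 3.97-fold higher, and the lipase Mgll at least 4.10-fold. Epas1, a hypoxia-inducible factor, differed by 2.83, the matrix protein Ecm1 by 2.91, the surface receptor Cd93 by 2.64, the caveolar coat protein Cav1 by 2.62 and the endothelial secreted protein Esm1 by 2.48. Id3, an inhibitor of helix-loop-helix factors, stood at 7.23, 5.89 and 6.93 in DN and at 4.27 to 4.71 in CD11b+ cells. In all 106 of the 326 higher genes were at background in CD11b+ cells. Members of lists of other cell types made up 55 of the 326, and 14 of the 34 with a difference over 2. Among the 222 lower genes, 4 were in such lists. All 40 lists together, those of dendritic cells included, held 491 of the 17043 named genes. The lists are short, so a gene outside them is not thereby one of dendritic cells. How far vascular, stromal or other cells contribute to the differences was not tested.

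**Figure D3:**
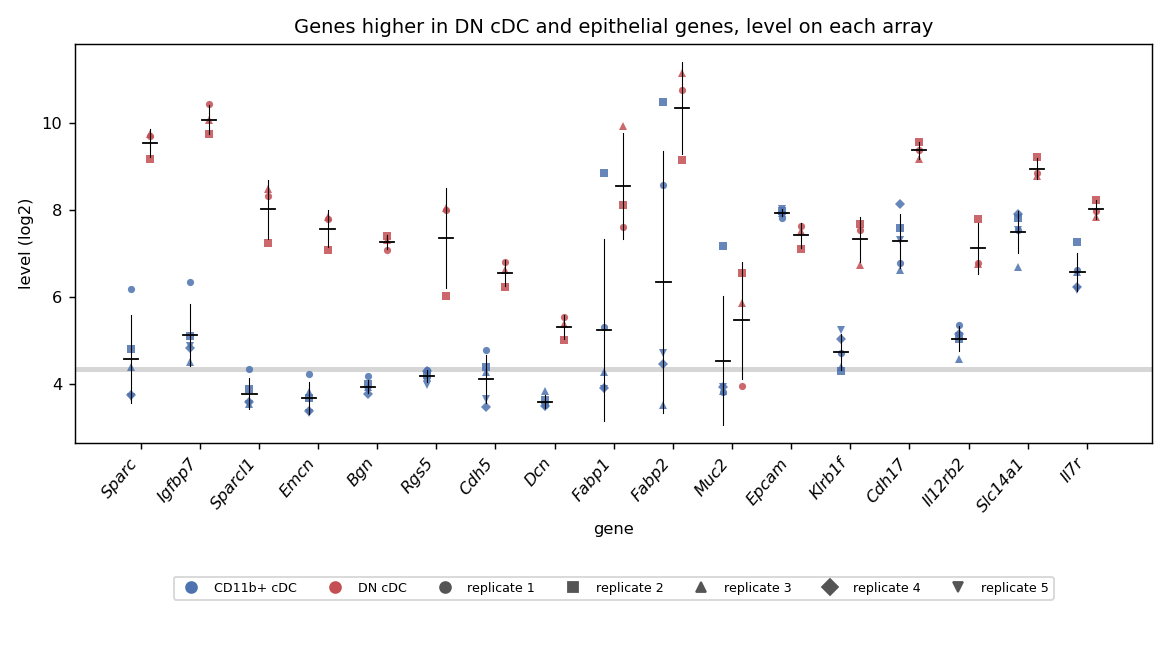
Level (log2) on each array of genes higher in DN cDC and of 4 epithelial genes, with CD11b+ arrays in blue and DN arrays in red, replicate numbers as symbols, the mean as a bar, and 1 SD as a line. The grey band is the background range; groups are separate for the matrix and vascular genes, while Fabp1, Fabp2 and Muc2 overlap through CD11b+ replicate 2.

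Epithelial genes varied within both groups. Of 19 measured markers, 0 were called in limma and 9 passed at an unadjusted p under 0.05, and the median was 0.923. Of all 17043 named genes, 2409 passed at that threshold. Fabp2, the fatty acid carrier of enterocytes, stood at 10.75, 9.15 and 11.14 in DN and at 8.58, 10.48, 3.51, 4.46 and 4.72 in CD11b+ cells. Fabp1 stood at 7.62, 8.11 and 9.94 in DN and at 5.32, 8.84, 4.28, 3.91 and 3.89 in CD11b+ cells. Reg1, of regenerating epithelium, was at 9.48 on DN replicate 3 and at 4.37 and 4.42 on the other DN arrays. Fabp1 and Fabp2 were high on the DN arrays and CD11b+ replicate 2, Fabp2 also on CD11b+ replicate 1, and Reg1 on DN replicate 3 alone. Without CD11b+ replicate 2, 3 of the 19 markers were called higher. Epcam, an adhesion molecule that Langerhans cells carry too, did not follow them, at 7.64, 7.10 and 7.51 in DN and 7.81 to 8.03 in CD11b+ cells. Summed levels were 2862, 2144 and 5822 in DN and 1117, 3487, 717, 830 and 696 in CD11b+ cells.

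**Figure D4:**
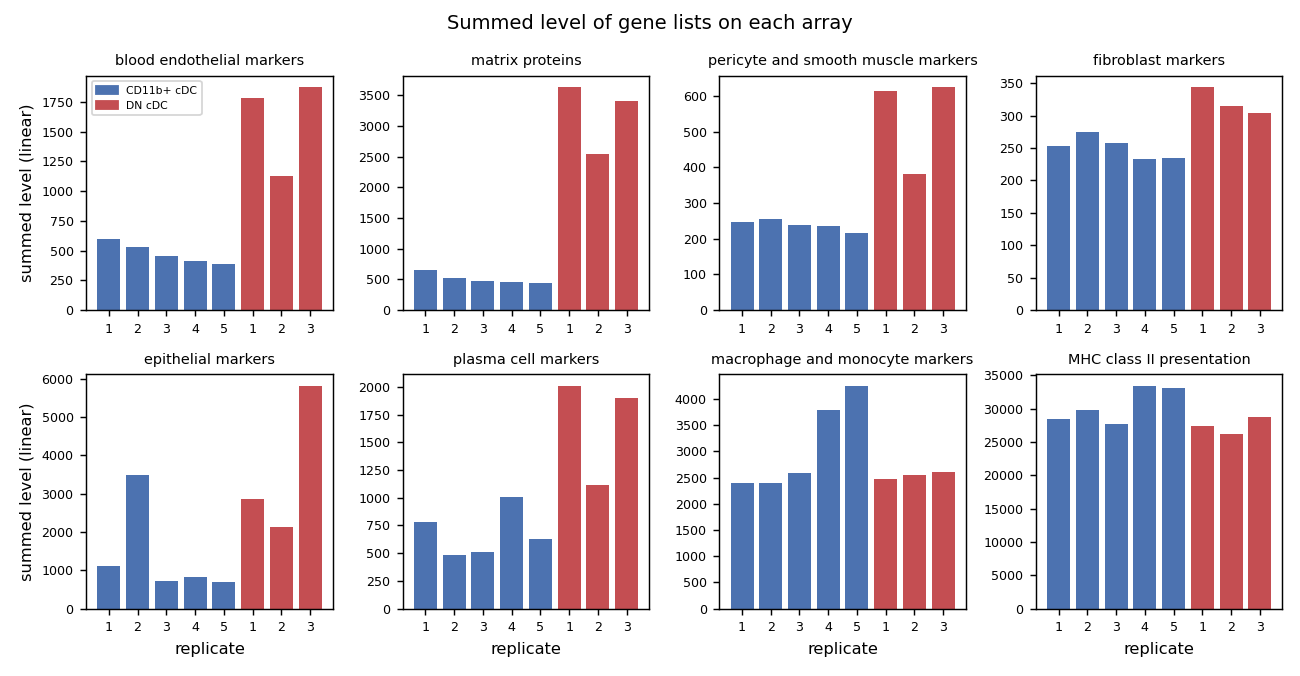
Summed linear level of 8 gene lists on each array (y axis) by replicate number (x axis), CD11b+ in blue and DN in red. Endothelial, matrix, pericyte and plasma cell sums are higher on the DN arrays than on any CD11b+ array. Most of the plasma cell sum on each DN array is Jchain. Epithelial sums overlap through CD11b+ replicate 2, and macrophage sums are highest on CD11b+ replicates 4 and 5.

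Of 8 measured plasma cell markers, 3 were higher in DN cDC. Jchain, the joining chain of polymeric immunoglobulin, stood at 10.49, 9.40 and 10.31 in DN and at 8.37, 6.66, 7.22, 8.63 and 7.06 in CD11b+ cells. The groups did not overlap, and the call (limma adjusted p = 0.0249) ended without CD11b+ replicate 5 (0.0611), DN replicate 1 (0.131) or DN replicate 3 (0.102). Tnfrsf17, the receptor BCMA, differed by 0.64 and Fkbp11, a folding enzyme, by 0.50, both at low levels. The defining markers Sdc1 (-0.12) and Mzb1 (0.12) were not called. Summed levels were 2011, 1118 and 1900 in DN and 483 to 1010 in CD11b+ cells. Jchain alone made up most of the sum on each DN array, so the sum largely follows this gene. The platelet chemokines Ppbp, at 4.85, 6.64 and 6.58 in DN and 3.21 to 4.53 in CD11b+ cells, and Pf4 were higher. The call of Pf4 (1.31) ended without DN replicate 3 (limma adjusted p = 0.152), DN replicate 1 (0.0717) or CD11b+ replicates 4 or 5. Alas2 (0.34), of red cells, was not called, and 0 of 7 B cell, 0 of 9 T cell, 0 of 10 plasmacytoid dendritic cell and 0 of 10 mast cell and basophil markers were called in limma. At an unadjusted p under 0.05, 1, 4, 2 and 2 of them passed, against 2409 of all 17043 named genes. The summed level of T cell markers was 951 to 1068 on the DN arrays and 655 to 866 on the CD11b+ arrays. Of the 9 T cell markers, 7 had differences above 0 and 2 below. Sums of the B cell, plasmacytoid and mast cell lists overlapped between groups. The part of T cells in the results was not tested.

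Macrophage markers gave 1 call in each direction among 11 measured genes. The higher gene was Fcgr1, described above. Adgre1, the antigen F4/80, was called at -0.60 (limma adjusted p = 0.0451), and not without any 1 array other than CD11b+ replicate 3, with adjusted p up to 0.213 without DN replicate 1. Mertk, an uptake receptor of macrophages, was at background in both groups, with LysoMac medians of 8.41 and 8.90. C1qa, a complement subunit, stood at 7.51 to 7.89 in DN and at 6.46 to 8.23 in CD11b+ cells, with a LysoMac median of 12.04 in the TIM-4- group. Atp6v0d2, a proton pump subunit, was at or near background in both groups.

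Some genes higher in DN cDC were above background on most or all arrays of both groups and in no list of vascular or stromal cells. Cdh17, an adhesion protein of intestinal epithelium, stood at 9.38, 9.57 and 9.17 in DN and at 6.79, 7.58, 6.61, 8.14 and 7.31 in CD11b+ cells. The part of epithelial cells in this difference was not tested. Slc14a1, a urea transporter, stood at 8.84, 9.22 and 8.78 in DN and at 6.69 to 7.90 in CD11b+ cells. Il12rb2, a chain of the IL-12 receptor, stood at 6.78, 7.80 and 6.77 in DN and at 4.58 to 5.36 in CD11b+ cells. DN arrays were above CD11b+ arrays for each of these genes. Klrb1f, a lectin-like receptor of the NK gene complex, stood at 7.55, 7.69 and 6.74 in DN and at 4.30 to 5.25 in CD11b+ cells. Il7r, the IL-7 receptor, stood at 7.97, 8.24 and 7.83 in DN and at 6.16 to 7.26 in CD11b+ cells, while Klrk1, the receptor NKG2D, was lower (-1.05 ± 0.18, limma adjusted p = 0.00459). They were the 2 calls among 10 measured genes of NK and innate lymphoid cells. The tetraspanin Cd81 differed by 1.74 and the phosphatase Ptpn3 by 1.09. The homeobox factor Hhex was called at 0.85, and not without DN replicate 1 (limma adjusted p = 0.0593) or DN replicate 2 (0.117).

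Other lists held few calls. Of genes of trafficking, S1pr1, the sphingosine receptor of exit from tissue, was called at 1.11 and Ccr10 at 0.45, and Ccr1 was lower (-0.73). These calls ended without DN replicates 1 or 3 for S1pr1 (limma adjusted p = 0.098 and 0.114) and Ccr10 (0.236 and 0.21) and without DN replicate 2 for Ccr1 (0.0819), and without CD11b+ replicate 5 for S1pr1 (0.0519) and any 1 CD11b+ array for Ccr10. Aldh1a1, which makes retinoic acid, was at least 1.62-fold higher in DN cDC, and the GTPase Iigp1, the only 1 of its family that was named, at least 1.91-fold. Itga6, an integrin chain that binds laminin, was at least 1.19-fold higher. The lysosomal protease genes Ctsc (-0.39) and Ctsz (-0.37) were called lower by small amounts, not without DN replicates 1 or 2 (limma adjusted p 0.138 and 0.155 for Ctsc, 0.17 and 0.174 for Ctsz), nor without CD11b+ replicate 4 for either, nor without CD11b+ replicates 2 or 5 or DN replicate 3 for Ctsz. The helicase sensor Ifih1 was called at -0.52, and not without any 1 DN array or CD11b+ replicate 1, with adjusted p up to 0.135. Oas1a, an antiviral enzyme, was called at -0.98 and the immediate early gene Nr4a3 at -0.84, and neither without DN replicate 2 (0.0983 and 0.0739), nor Nr4a3 without DN replicate 1 (0.0638). Bub1b, of the mitotic checkpoint, was called at -0.70, and not without DN replicate 2 (0.0631), while the proliferation marker Mki67 (0.06) was not called. The matrix protease Mmp9, of neutrophils, was called at 0.78, and not without DN replicate 2 (0.108) or DN replicate 3 (0.0932). Uchl1, of neurons, was at least 1.28-fold higher in DN cDC.

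**Figure D5:**
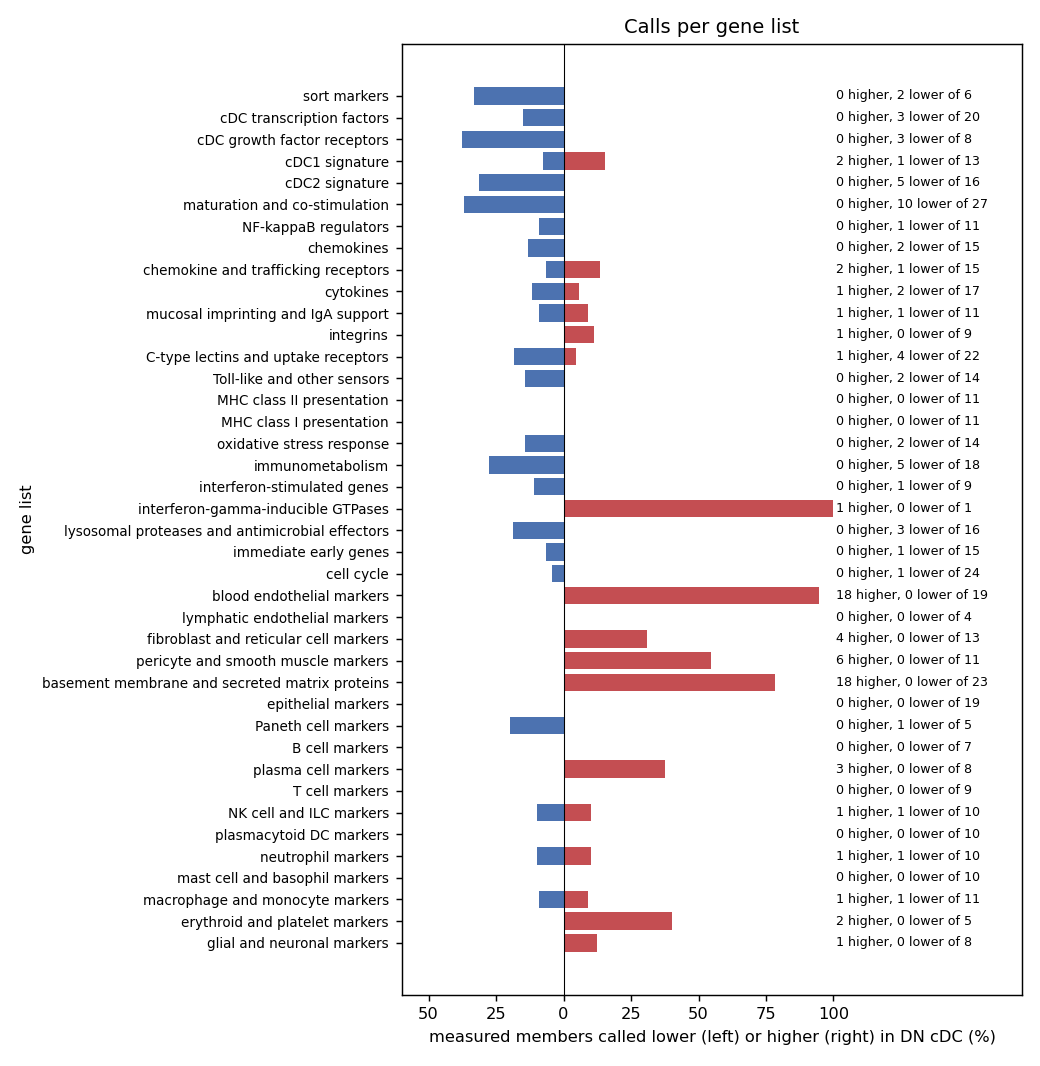
Percent of the measured members of each gene list called lower (left, blue) or higher (right, red) in DN cDC (x axis), with the counts printed beside the bars and 1 row per list (y axis). Endothelial and matrix lists reach 18 of 19 and 18 of 23 higher, and the maturation list 10 of 27 lower; the single measured GTPase fills its row.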

How the data were processed

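Log2 signals of 25 arrays were deposited by the authors as 1 table of 35556 rows, made with RMA in Affymetrix Expression Console 1.4.1, per the submitters' processing notes. Samples were grouped by title. The table holds 3 row orders, and its IDs fit only the R848 arrays. Rows of the untreated set were matched to them by dynamic programming on mean CD11b+ levels, without DN arrays. A row was accepted where 3 settings gave the same partner, 1 flanking row on each side kept the offset, neighbours correlated at 0.8 or more and the partner's probability was 0.9 or more. Of 28939 aligned rows 23330 were accepted, against 20 with rows rolled out of place. In all, 6 acceptance versions were tried with results in view; the one used gave the most genes tested and the most called. Of genes with several rows, the brightest was kept.

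limma 3.58.1 in R 4.3.3 was fitted to 14 arrays (these 8 and 6 LysoMac), with DN minus CD11b+ as the contrast and Benjamini-Hochberg adjustment over 17043 genes. Replicates were independent pools, per the labels, and p-values measure the spread between them. On data simulated for this comparison, over 17043 genes, 85 of 100 genes changed 2-fold and 99 of 100 changed 4-fold were recovered. Among 195 calls on the simulated data, 11 were wrong. On the real arrays, some CD11b+ replicates stood apart together, and calls fell from 548 to 318 without DN replicate 1. Whether the simulated rates hold under such differences between arrays was not tested. The number of arrays limits the precision.

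The genes and the 40 lists (491 of 652 members measured) were chosen with earlier results of these data known. Genes named by rule were the sort markers and transcription factors, the 15 largest separate differences in each direction, the 10 largest outside lists of other cells, and up to 6 called members per list with any that opposed it. A further 31 genes, and the uncalled list members named, were chosen after their values were seen. Alternatives changed the scaling, filter, weights, samples, alignment and replicate block. Same-numbered DN and CD11b+ arrays deviated together at r of 0.16, 0.07 and 0.10, and arrays of different number at -0.10 to -0.02. Every same-number value was above every value for different numbers. No label pairs these arrays, so they were not treated as pairs in the main fit. On the 8 arrays alone, 254 genes were called with a replicate block and 338 without it.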

Additional observations from a re-analysis of the deposited data

Results flagged for a closer look

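Single arrays stood apart from the other 4 of the CD11b+ group by Dixon's criterion for 4 of 152 genes examined, where chance alone flags about 1 in 20 groups. Muc2, the mucin of goblet cells, was 7.18 on CD11b+ replicate 2 against 3.81 to 3.94 on the others, and Fabp1 was 8.84 on the same array against 3.89 to 5.32. Oas1a was 6.39 on CD11b+ replicate 3 against 7.02 to 7.11. Pfkfb3 was 9.58 on CD11b+ replicate 5 against 9.21 to 9.30.

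Rows that received no gene name also carried a signal: 191 of 17278 such rows were called in a fit over all rows, 115 higher and 76 lower in DN cDC. Of these 14 were higher by over 2 on the log2 scale, and the differences ran from -2.27 to 4.97.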

How the results depend on the processing

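Against 548 genes called (326 higher and 222 lower), the fit on the 8 arrays alone called 338, with 114 lower. Leaving out 1 array at a time gave 318 to 605 calls, 210 to 340 higher and 88 to 265 lower. A replicate block on the 8 arrays called 254 genes (168 higher, 86 lower); each DN array correlated best with the CD11b+ array of its own number, which is a hint from the data and not the design. Calls fell to 310 (196 higher, 114 lower) under an earlier acceptance version with 11863 genes, and to 358 (97 lower) without CD11b+ replicate 1 and DN replicate 2 together; both were chosen after seeing the data. In the remaining settings, which covered scaling, filter, weights, trend and alignment, counts of all calls stayed within 1.5 times. Of the 115 named genes that were called, 55 kept their call and direction in every alternative that named them, and 0 reversed; 13 uncalled genes changed sign in some alternative. The genes named were those whose levels in CD11b+ cells let their rows be matched, and levels at background bound any difference there. Causes of the moves in calls were not tested.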
